A study of Mus musculus with 6 samples.

Results

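The matrix metalloproteases (MMPs) and their tissue inhibitors (TIMPs) were followed in cultured mouse hepatic stellate cells through 10 genes taken by name: Mmp2, Mmp3, Mmp9, Mmp12, Mmp13, Mmp14, Mmp19, Timp1, Timp2 and Timp3. All 10 were found among the 17909 gene identifiers listed in at least 1 library, and 9 of them passed the filter on low counts. Mmp9 did not. The set holds 7 proteases and 3 inhibitors.

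MMPs are zinc-dependent endopeptidases that are made as inactive precursors and cut collagens, elastin, fibronectin and other matrix proteins once their propeptide is removed. TIMPs bind the active site of the mature enzymes and block it. In liver, stellate cells are known as a main source of Mmp2, Mmp14 and the TIMPs, and the balance of proteases and inhibitors is a textbook feature of how scar matrix is laid down and resolved.

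RNA was sequenced from primary stellate cells of male C57BL/6 mice aged 24 weeks, in 3 libraries per group. The HAS2_Tg group (replicates 4, 5 and 6) carried human HAS2, a hyaluronan synthase gene, under the alpha smooth muscle actin promoter, which is also active in smooth muscle. In the Has2_KO group (replicates 7, 8 and 9) floxed Has2 was deleted by Lrat-Cre, which acts in stellate cells. Livers were perfused with collagenase and pronase, cells were separated on a Nycodenz gradient and depleted of Cd11b-positive macrophages, left to attach for 4 h in 10% serum, and cultured for 14 h more, giving day 1 cells. No unmodified control group was analysed here, so each difference below sets the transgene against the deletion and cannot be assigned to either. The labels do not say whether the 3 libraries of a group came from separate mice, so p-values measure the spread between these libraries, which may be technical.

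Libraries held 11961726 to 12423220 expected counts in all. The mouse gene Has2 had 847, 889 and 835 counts in HAS2_Tg and 1 count in each Has2_KO library, and the human transgene was not analysed here. Whether reads of the transgene were counted as mouse Has2 was not tested. All 17 stellate cell markers were listed in the files, with summed levels of 11344 to 12357 CPM (counts scaled to library size by TMM) in HAS2_Tg and 7596 to 8151 CPM in Has2_KO. Of these 17 genes, 12 were higher in HAS2_Tg, against 20.2% of all tested genes. Pdgfra was lower (log2 fold change -0.75, SE 0.07), and the other 4, Reln, Hgf, Ngfr and Gfap, were not called. With total counts 10 were higher and 2 lower. Summed macrophage markers were at 16.2 to 18.0 CPM against 687 to 736 CPM. Smooth muscle and portal fibroblast markers summed to 7202 to 8568 CPM in HAS2_Tg and 1475 to 1480 CPM in Has2_KO. Most of both sums was Acta2, at 5904 ± 708 against 1196 ± 13.7 CPM (mean and SD of 3). Of 10 tested genes 6 were higher and 3 lower. The higher genes with the smallest adjusted p were Myh11, Lmod1 and Acta2, with log2 fold changes of 3.55, 2.41 and 2.30. The lower genes were Thy1, Cd34 and Fbln2, with log2 fold changes of -2.17, -2.13 and -0.69. Hepatocyte markers were low in both groups (8 of 9 tested lower, 24.9 to 26.1 against 62.0 to 79.1 CPM). Most of their HAS2_Tg sum was Trf (22.1 against 25.6 CPM, not called), while Alb was at 0.88 against 23.4 CPM. Cholangiocyte markers were low in both as well (3 of 3 lower, 2.54 to 2.80 against 9.48 to 12.8 CPM). The tested genes were Sox9, Krt8 and Krt18. Krt7, Krt19, Epcam and Cdh1 were not tested, with at most 4 counts in any library. Most lower genes of the hepatocyte and cholangiocyte lists passed the low-count filter through Has2_KO, so they could hardly be called higher. Of 3 mesothelial markers tested 1 was higher and 2 were lower (266 to 317 against 238 to 255 CPM). Most of both sums was the higher gene, Efemp1 (286 against 225 CPM). The lower genes were Wt1 (0.15 against 4.08 CPM) and Podxl (6.14 against 19.4 CPM). HAS2_Tg replicate 4 stood further from the other libraries of its group (chi-square per degree of freedom 22.8 and 31.5) than those did from each other (6.24). Without it the members called were the same in number, 3 higher and 4 lower.

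Mmp3, Mmp12 and Mmp13 lie in the MMP gene cluster of chromosome 9, together with Mmp10, and these 4 genes showed the widest differences in level among the MMPs of at least 5 CPM. Their promoters are shown first because a reader can see what they share. The windows run from 250 bases before the annotated start through the first 10 bases of the transcript, are written 5′ to 3′ on the gene's own strand, and come from RefSeq (GRCm38.p6). Capitals mark 2 motifs, which were chosen with the expression values known: TGANTCA, the core recognised by AP-1 (Fos and Jun dimers), and TATAAA, the letters of a TATA box, each searched on both strands. For Mmp12 the start is that of the transcript listed in the deposited files. The windows are chr9:7272264-7272523 for Mmp13, chr9:7347124-7347383 for Mmp12, chr9:7445572-7445831 for Mmp3 and chr9:7502092-7502351 for Mmp10, all on the plus strand.
Mmp13: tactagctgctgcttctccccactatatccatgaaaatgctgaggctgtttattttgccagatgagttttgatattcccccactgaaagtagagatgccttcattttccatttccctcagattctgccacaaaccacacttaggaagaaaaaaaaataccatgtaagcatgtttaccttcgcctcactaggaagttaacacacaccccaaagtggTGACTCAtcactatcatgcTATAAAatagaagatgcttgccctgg
Mmp12: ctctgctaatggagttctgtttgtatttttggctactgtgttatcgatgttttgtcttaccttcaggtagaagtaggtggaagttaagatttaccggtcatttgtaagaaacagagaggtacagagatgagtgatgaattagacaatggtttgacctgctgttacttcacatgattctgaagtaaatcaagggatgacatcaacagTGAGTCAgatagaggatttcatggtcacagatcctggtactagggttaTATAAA
Mmp3: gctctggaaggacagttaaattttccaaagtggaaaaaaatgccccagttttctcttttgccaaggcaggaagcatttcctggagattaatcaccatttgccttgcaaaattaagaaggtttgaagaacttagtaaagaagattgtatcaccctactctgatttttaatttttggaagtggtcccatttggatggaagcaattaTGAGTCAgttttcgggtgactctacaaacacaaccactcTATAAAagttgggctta
Mmp10: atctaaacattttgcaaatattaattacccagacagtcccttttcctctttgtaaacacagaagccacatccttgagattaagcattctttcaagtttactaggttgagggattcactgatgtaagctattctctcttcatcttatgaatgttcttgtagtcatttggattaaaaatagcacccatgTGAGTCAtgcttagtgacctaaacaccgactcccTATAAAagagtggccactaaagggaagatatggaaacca

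Each of these 4 windows held 1 TGANTCA match and, downstream of it, 1 TATAAA match. The AP-1 core began at position -35 in Mmp13, -44 in Mmp12, -46 in Mmp3 and -63 in Mmp10, counted from the annotated start, and TATAAA followed 19, 48, 39 and 34 bases later. That put TATAAA at -16 in Mmp13, -7 in Mmp3 and -29 in Mmp10, but at position 5 inside the transcript in Mmp12. Of 32851 promoter windows in the table, 7.03% held TGANTCA, 12.7% held TATAAA and 1.3% held both. A match is a description of these letters and not a measured binding site. Of the other cluster genes, Mmp1a, Mmp1b and Mmp20 also held both motifs, Mmp8 held TATAAA alone and Mmp27 held neither. Mmp7 held both at its annotated start 7692090, and neither at 7692341. The first of its 2 TATAAA matches was at -123, upstream of the AP-1 core at -63, and the position of the second was not examined. Mmp1b had 1 count over the 6 libraries, and the levels of Mmp1a, Mmp7 and Mmp20 were not analysed here.

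Timp2 and Timp3, the members with the highest levels, had windows of another kind. They are shown for contrast, Timp2 from chr11:118355402-118355661 on the minus strand and Timp3 from chr10:86300162-86300421 on the plus strand.
Timp2: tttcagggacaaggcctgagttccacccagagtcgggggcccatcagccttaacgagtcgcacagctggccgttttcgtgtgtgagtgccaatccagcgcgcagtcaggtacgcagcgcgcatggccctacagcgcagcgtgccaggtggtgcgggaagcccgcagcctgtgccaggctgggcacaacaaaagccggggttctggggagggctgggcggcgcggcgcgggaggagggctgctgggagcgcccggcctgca
Timp3: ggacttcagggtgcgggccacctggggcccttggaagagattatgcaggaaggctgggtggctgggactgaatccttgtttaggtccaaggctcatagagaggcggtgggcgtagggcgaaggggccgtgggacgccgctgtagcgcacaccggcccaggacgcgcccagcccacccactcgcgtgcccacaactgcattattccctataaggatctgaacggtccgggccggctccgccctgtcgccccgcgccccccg

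Neither held either motif. Their windows were 68.5% and 66.9% G or C, with 22 and 21 CpG dinucleotides, against 38.1% to 41.5% G or C and 1 or 2 CpG dinucleotides in Mmp3, Mmp12 and Mmp13. The median of all windows was 6 CpG dinucleotides. Mmp14 (10) and Timp1 (6) lay between and held neither motif. The table has no entry for Mmp2, Mmp9 and Mmp19.

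The stromelysin, elastase and collagenase genes Mmp3, Mmp12 and Mmp13 were near 0 in HAS2_Tg and among the well-expressed genes in Has2_KO. Timp2, Timp3 and Mmp2 were higher in HAS2_Tg, Timp1 was lower, and Mmp14 and Mmp19 did not pass the test. Of 9 members tested, 7 were called with edgeR's quasi-likelihood test at a Benjamini-Hochberg adjusted p of 0.05, against 40.7% of all 13014 genes tested. The 3 called higher stood against 20.2% of all genes, and the 4 called lower against 20.5%. The median log2 fold change was -0.12 over the members and -0.01 over all genes. Levels are given as FPKM, which is scaled by gene length and library total, and fold changes are HAS2_Tg minus Has2_KO on the log2 scale after TMM scaling. FPKM did not overlap between the groups for any of the 10 members, nor for 57.4% of tested genes.

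**Figure D1:**
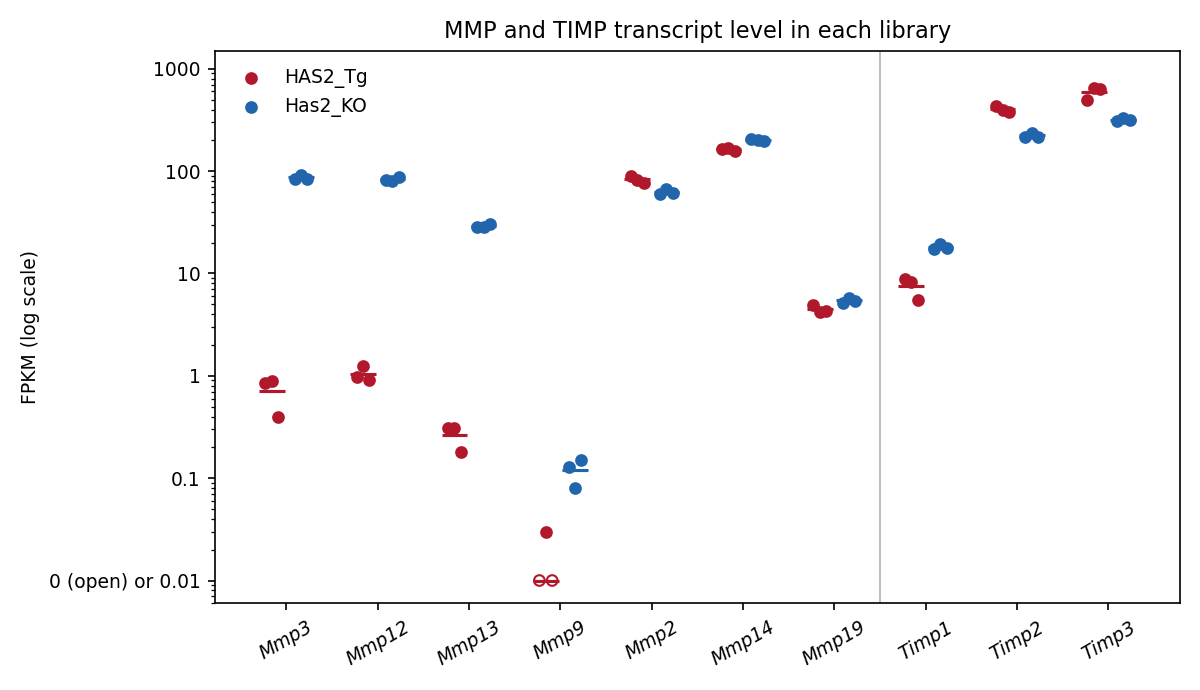
FPKM (log axis) of each member in the 3 HAS2_Tg libraries (red) and the 3 Has2_KO libraries (blue), with horizontal lines at group means; open circles are values of 0. Mmp3, Mmp12 and Mmp13 lie below 1.3 FPKM in HAS2_Tg and above 28 FPKM in Has2_KO, while Timp2 and Timp3 lie higher in HAS2_Tg.

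Mmp3 encodes stromelysin 1, which cuts proteoglycans, fibronectin and basement membrane proteins and can activate other MMP precursors. It lies on chromosome 9 from 7445822 to 7455975 (plus strand, GRCm38). Its FPKM was 0.85, 0.89 and 0.40 in HAS2_Tg replicates 4, 5 and 6 and 84.3, 92.4 and 84.2 in Has2_KO replicates 7, 8 and 9. Every Has2_KO library was far above every HAS2_Tg library, and replicate 6 was the lowest of all. The log2 fold change was -6.74 (SE 0.15, n = 3 per group), 107-fold higher in Has2_KO (edgeR adjusted p = 8.64e-14).

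Mmp12 encodes macrophage elastase, named for the cell type in which it was first described. It lies on chromosome 9 from 7344397 to 7360461 on the plus strand. FPKM values of 0.98, 1.24 and 0.90 in HAS2_Tg stood against 81.5, 80.3 and 88.5 in Has2_KO. The log2 fold change was -6.14 (SE 0.11), or 70.7-fold (edgeR adjusted p = 2.15e-14). In counts, Mmp12 was the most abundant of the 3, with 3656, 3619 and 3976 in the Has2_KO libraries and 43, 54 and 40 in HAS2_Tg.

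Mmp13, the main interstitial collagenase of rodents, lies on chromosome 9 from 7272514 to 7283333 on the plus strand. It had 0.31, 0.31 and 0.18 FPKM in HAS2_Tg and 28.5, 28.3 and 30.2 FPKM in Has2_KO. That is a log2 fold change of -6.57 (SE 0.15), or 94.7-fold (edgeR adjusted p = 8.64e-14). Counts in HAS2_Tg were 10, 10 and 6, so Mmp13 passed the filter through Has2_KO, as did Mmp3, with 9 counts in replicate 6.

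Ordered from the most lowered gene in HAS2_Tg, Mmp3 stood at rank 91, Mmp13 at rank 100 and Mmp12 at rank 125 of 13014. Of all tested genes, 2.48% were called and at least 16-fold lower, and these 3 members were among them. By the closest profile over the 6 libraries (root mean square difference of centred log2 values among tested non-members of at least 5 CPM), Mmp12 was nearest to Lyz2, at 0.08, and Msr1, at 0.14. Mmp13 was nearest to Msr1, at 0.06, and Cd36, at 0.11, and Mmp3 to Lyz2, at 0.24, and Cxcl5, at 0.27. Between groups this far apart the distance mostly follows the fold change, so a near profile does not place a member in a cell type. The level of Lyz2, a lysozyme gene of myeloid cells, was 2.32 ± 0.35 CPM against 190.3 ± 13.2 CPM in Has2_KO libraries (mean and SD of 3), and that of the scavenger receptor gene Msr1 was 0.50 ± 0.14 against 57.5 ± 3.98 CPM.

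Lyz2 is on the macrophage and Kupffer cell list, of which 19 of 20 genes were tested. All 19 were lower in HAS2_Tg, against 20.5% of all tested genes. The list's median log2 fold change was -5.87, with Clec4f and Timd4 at 0 counts in all HAS2_Tg libraries. Sinusoidal endothelial markers were lower for 16 of 17 genes (median -6.09), with summed levels of 423 to 452 CPM against 1336 to 1428 CPM. The exception, Ehd3, was higher in HAS2_Tg, at 407 ± 11.9 CPM against 187 ± 4.81 CPM. Many genes of both lists passed the low-count filter through Has2_KO. Adgre1 had 3, 2 and 2 counts in HAS2_Tg, and Kdr had 2, 2 and 4. Such genes could hardly be called higher, so the counts of lower genes do not test these cell types. The neutrophil list, of which 3 of 12 genes were tested, summed to 30.2 to 35.0 CPM against 39.1 to 42.7 CPM. Most of it was Cxcr2, at 31.4 ± 2.26 against 30.8 ± 2.06 CPM, which was not called (log2 fold change 0.03, SE 0.09). The other tested genes of this list, Clec4d and Csf3r, were called lower in HAS2_Tg. Clec4d had 1 count in each HAS2_Tg library and 75, 81 and 71 counts in Has2_KO. Csf3r had a log2 fold change of -1.20 (SE 0.24, edgeR adjusted p = 0.00105). Of the untested genes, S100a8, Camp and Elane were at 0 in all HAS2_Tg libraries. They had 4, 3 and 2 counts over the Has2_KO libraries, too few to show a difference. The part of these cell types in the MMP differences was not tested. In RNA from a mixed culture, fewer cells of a type and less RNA per cell cannot be told apart.

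RSEM, the authors' counting program, divided reads between Mmp3 and its close relative Mmp10, stromelysin 2. In 5 of the 6 libraries the expected counts of both genes carried decimals, and their sum was a whole number within 0.01 in all 6, giving 28, 24 and 26 reads for the pair in HAS2_Tg and 2785, 2951 and 2740 in Has2_KO. The level of either gene alone is therefore uncertain. In HAS2_Tg replicate 6, where both counts were whole, Mmp10 received 17 counts and Mmp3 9. The summed pair had the same order of groups.

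The difference ran across the MMP cluster of chromosome 9 and was much smaller in its neighbours. Mmp10 was 63.2 ± 1.68 CPM in Has2_KO and 0.89 ± 0.56 CPM in HAS2_Tg (log2 fold change -6.15, SE 0.19, edgeR adjusted p = 4.23e-12). Mmp8, neutrophil collagenase, had 0, 2 and 0 counts in HAS2_Tg and 42, 54 and 50 in Has2_KO, a scaled ratio of group sums of 63.0 with a 95% exact interval of 17.1 to 525 that covers counting error only. Mmp27, at the low end with 0.18 ± 0.09 against 1.72 ± 0.78 CPM, had a log2 fold change of -3.22 (SE 0.55, edgeR adjusted p = 0.000264). Mmp10, Mmp8 and Mmp27 passed the filter through Has2_KO.

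Genes on either side of the cluster moved little or in either direction. Dcun1d5, which starts at -95.9 kb from the start of Mmp13, had a log2 fold change of -0.05 (95% interval -0.25 to 0.16) and Yap1, at 659 kb, 0.09 (-0.06 to 0.24). Tmem123, the nearest tested gene on the far side of the cluster, was higher in HAS2_Tg by 0.39 (SE 0.08, edgeR adjusted p = 0.000702). Birc2 and Birc3, which encode inhibitor-of-apoptosis proteins, were lower, at -0.41 (SE 0.08) and -0.88 (SE 0.08). Of the other tested neighbours, Pdgfd, which encodes a platelet-derived growth factor and starts at -1104 kb, was higher by 1.10 (SE 0.15, edgeR adjusted p = 3.38e-05). Cep126 was lower, at -0.50 (SE 0.16), and Dync2h1 (-0.37), Cfap300 (-0.33) and Trpc6 (-0.15) were not called. These are all the tested protein-coding neighbours within 1000 kb of the cluster.

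**Figure D2:**
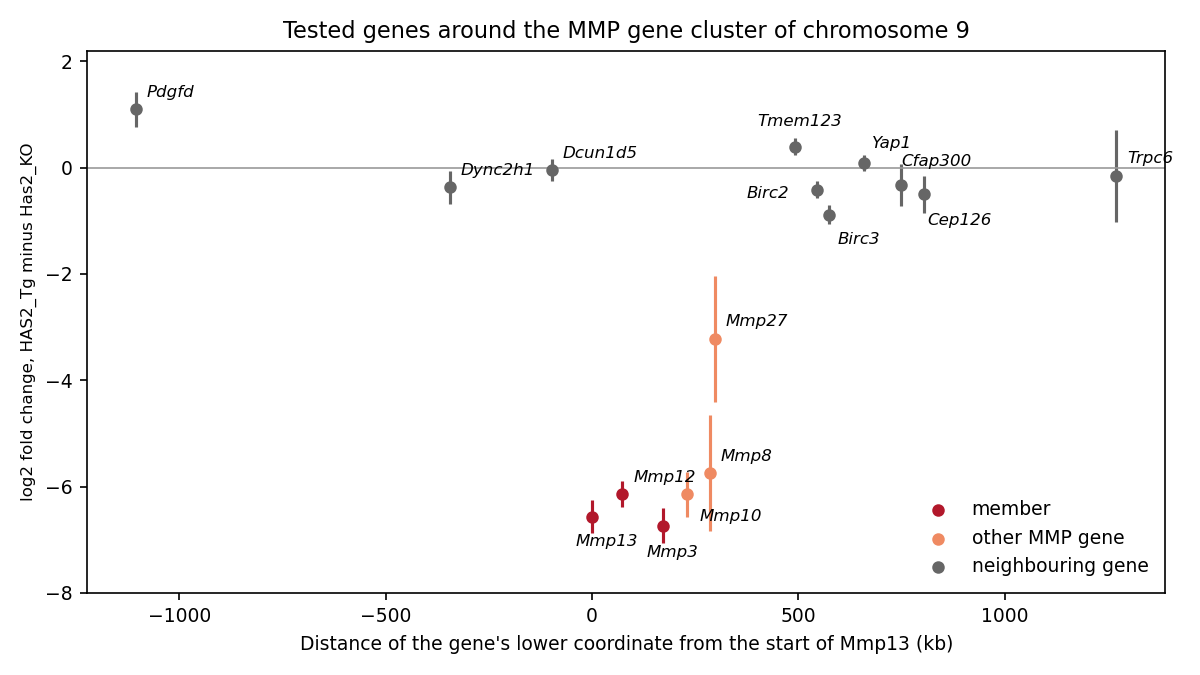
Log2 fold change (HAS2_Tg minus Has2_KO, 95% intervals) of tested protein-coding genes against the distance of each gene from the start of Mmp13 in kb. The 3 members and Mmp10 lie between -6.74 and -6.14, and the neighbours outside the cluster lie between -0.88 and 1.10.

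Mmp2 and Mmp14 form a known pair, in which the membrane-type protease Mmp14, bound to Timp2, activates the precursor of the gelatinase Mmp2. Mmp2 lies on chromosome 8 from 92827290 to 92853421 (plus strand). It had 89.0, 82.7 and 77.2 FPKM in HAS2_Tg and 59.7, 66.9 and 61.6 FPKM in Has2_KO. All HAS2_Tg libraries were above all Has2_KO libraries, and the log2 fold change was 0.58 (SE 0.08, 95% interval 0.40 to 0.75), or 1.49-fold (edgeR adjusted p = 4e-05). The genes nearest to it in profile were Creb3 and Myadm.

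Mmp14, on chromosome 14 from 54431598 to 54442456 (plus strand), was the highest MMP in both groups. FPKM was 164.9, 168.5 and 157.2 in HAS2_Tg and 205.5, 199.5 and 198.9 in Has2_KO, so the libraries separated, with Has2_KO higher. The test did not call it (log2 fold change -0.12, 95% interval -0.27 to 0.02, edgeR adjusted p = 0.168). Scaled by total counts the value was -0.30 (edgeR adjusted p = 0.00256), so its call depends on scaling, and that scaling moved the median of all genes from -0.01 to -0.18.

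Mmp19, a secreted protease that cuts basement membrane proteins, lies on chromosome 10 from 128790910 to 128800827 (plus strand). It had 4.95, 4.20 and 4.30 FPKM in HAS2_Tg and 5.16, 5.80 and 5.40 FPKM in Has2_KO. The difference was not called (log2 fold change -0.12, 95% interval -0.36 to 0.11, edgeR adjusted p = 0.408), but it was with total counts (-0.30, edgeR adjusted p = 0.0347). On the CPM scale the groups overlapped, with 14.4 to 17.7 against 16.1 to 18.0 CPM. Its span overlaps the opposite-strand gene Tmem198b, and the sources used here do not say whether counting used strand.

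Mmp9, gelatinase B, on chromosome 2 from 164940326 to 164955850 (plus strand), was barely present. It had 0, 1 and 0 counts in HAS2_Tg and 5, 3 and 6 counts in Has2_KO. The scaled ratio of group sums was 12.1 in favour of Has2_KO, with a 95% exact interval of 1.84 to 511. The libraries did not overlap, but at this depth the size of the difference is poorly set.

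The inhibitors split. Timp2 and Timp3 were about 2.03-fold and 2.12-fold higher in HAS2_Tg, while Timp1 was 2.14-fold lower. Timp2, which inhibits most MMPs and also serves in the activation of Mmp2, spans bases 118301061 to 118355411 of chromosome 11 (minus strand). Its FPKM was 432.6, 391.7 and 381.1 in HAS2_Tg and 213.6, 237.9 and 217.6 in Has2_KO. The log2 fold change was 1.02 (SE 0.08, edgeR adjusted p = 1.31e-07), and replicate 4 was the highest. Cep295nl, which lies within Timp2 on the same strand, had a log2 fold change of 1.32 (SE 0.14). Where exons of Cep295nl and Timp2 overlap, strand cannot separate their reads, so the value for Cep295nl may not be independent of Timp2.

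Timp3 encodes a TIMP that binds the extracellular matrix and also inhibits ADAM proteases. It lies on chromosome 10 from 86300412 to 86349505 (plus strand), inside the opposite-strand gene Syn3. FPKM was 498.3, 647.2 and 641.6 in HAS2_Tg and 309.8, 328.2 and 312.7 in Has2_KO. Replicate 4 was the lowest HAS2_Tg library, still above every Has2_KO library. The log2 fold change was 1.08 (SE 0.10, edgeR adjusted p = 3.24e-07), and 1.18 without replicate 4. Syn3 had at most 37.8 counts in any library and a log2 fold change of 0.00 (SE 0.28).

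Timp1, the inducible TIMP that is widely used as a marker of liver fibrosis, lies on chromosome X from 20870166 to 20874737 (plus strand), inside the opposite-strand gene Syn1. It had 8.77, 8.26 and 5.48 FPKM in HAS2_Tg and 17.4, 19.3 and 17.6 FPKM in Has2_KO. Replicate 6 was the lowest. The log2 fold change was -1.10 (SE 0.15, 95% interval -1.42 to -0.77, edgeR adjusted p = 3.51e-05). Syn1 was lower as well (-1.82, SE 0.27), with 10 to 15 counts in HAS2_Tg and 44 to 68 in Has2_KO. Reads of Timp1 and Syn1 cannot be told apart where their exons overlap if strand was not used. The profiles nearest to Timp1 were those of Mt1, a metallothionein, and Atp8a1, those nearest to Timp2 were Dlg3 and Gpc4, and Masp1 was among those nearest to Timp3.

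In order of FPKM, the Has2_KO libraries held Timp3 (316.9 ± 9.87), Timp2 (223.0 ± 13.0), Mmp14 (201.3 ± 3.68), Mmp3 (87.0 ± 4.75), Mmp12 (83.4 ± 4.46), Mmp2 (62.7 ± 3.71), Mmp13 (29.0 ± 1.05), Timp1 (18.1 ± 1.03), Mmp19 (5.45 ± 0.32) and Mmp9 (0.12 ± 0.04), each as mean and SD of 3. The ranges of Mmp3 and Mmp12 overlapped, and no other neighbours in this order did. In HAS2_Tg the order was Timp3, Timp2, Mmp14, Mmp2, Timp1, Mmp19, Mmp12, Mmp3, Mmp13 and Mmp9. There the lowest Mmp12 library (0.90 FPKM) barely cleared the highest Mmp3 library (0.89 FPKM).

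Added up, the 7 MMPs had 261.0, 257.8 and 240.2 FPKM in HAS2_Tg and 464.8, 473.3 and 468.9 FPKM in Has2_KO. The 3 TIMPs had 939.7, 1047 and 1028 FPKM against 540.9, 585.4 and 547.9 FPKM. The ratio of TIMP to MMP transcripts was 3.98 ± 0.35 in HAS2_Tg and 1.19 ± 0.04 in Has2_KO (SD, n = 3), with values of 3.60, 4.06 and 4.28 against 1.16, 1.24 and 1.17. These are sums of RNA levels of chosen genes, given without a test, and say nothing of enzyme activity. Mmp3, Mmp12 and Mmp13 made up 18.5%, 17.8% and 6.18% of the MMP sum in Has2_KO and 0.28%, 0.41% and 0.10% in HAS2_Tg. Mmp14 held 42.9% in Has2_KO and 64.7% in HAS2_Tg, and Mmp2 13.4% and 32.8%. Among the TIMPs the share of Timp1 was 3.24% in Has2_KO and 0.75% in HAS2_Tg, while that of Timp2 was 40.0% and 40.2%.

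**Figure D3:**
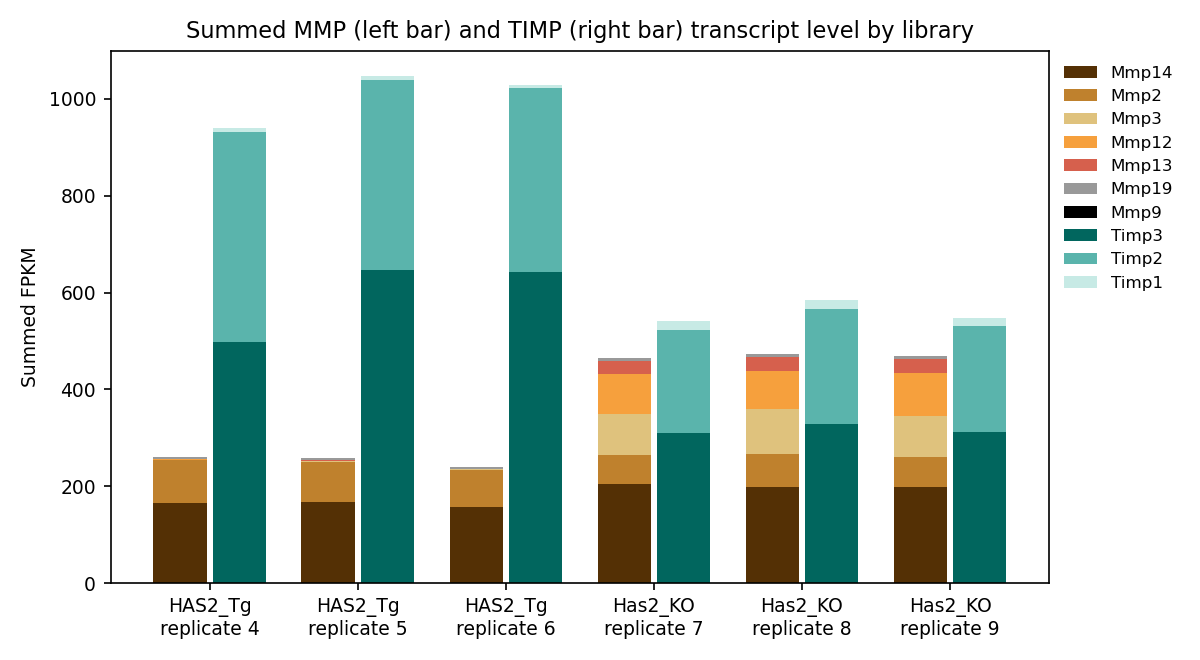
Summed FPKM of the 7 MMP members (left bar) and the 3 TIMP members (right bar) in each library, stacked by gene. The TIMP bar is 3.60 to 4.28 times the MMP bar in HAS2_Tg and 1.16 to 1.24 times in Has2_KO, and the segments of Mmp3, Mmp12 and Mmp13 are slivers in HAS2_Tg.

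Members of the family outside the set also went both ways. Of 16 other MMP genes, 13 were listed and 8 tested, with 3 higher and 3 lower in HAS2_Tg (median log2 fold change -0.03). The 3 lower were the cluster genes Mmp10, Mmp8 and Mmp27. The membrane-anchored protease gene Mmp17 was 44.3 ± 6.22 CPM in HAS2_Tg and 9.33 ± 0.91 CPM in Has2_KO (log2 fold change 2.25, SE 0.12, edgeR adjusted p = 1.35e-09). Mmp11, stromelysin 3, was higher by 0.89 (SE 0.11) and the membrane-type protease gene Mmp15 by 0.78 (SE 0.09). Mmp24, at 13.5 and 12.1 CPM, was not called (0.16, SE 0.11), and its sign turned with total counts (-0.02).

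Of 7 other inhibitors and related proteins, 6 were listed and 4 tested. Reck, a membrane-anchored inhibitor of several MMPs, was 77.5 ± 1.42 CPM in HAS2_Tg and 43.9 ± 1.71 CPM in Has2_KO (log2 fold change 0.82, SE 0.08, edgeR adjusted p = 4.74e-07). Pcolce, which enhances the trimming of procollagen, was higher by 0.87 (SE 0.10). The serine protease inhibitor gene Tfpi2 had -1.83 (SE 0.22). Pzp, of the alpha-2-macroglobulin family, had -3.18 (SE 0.42). Its relatives A2m and Mug1, not tested, were at 0 in all HAS2_Tg libraries, with only 21 and 38 counts over the Has2_KO libraries.

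**Figure D4:**
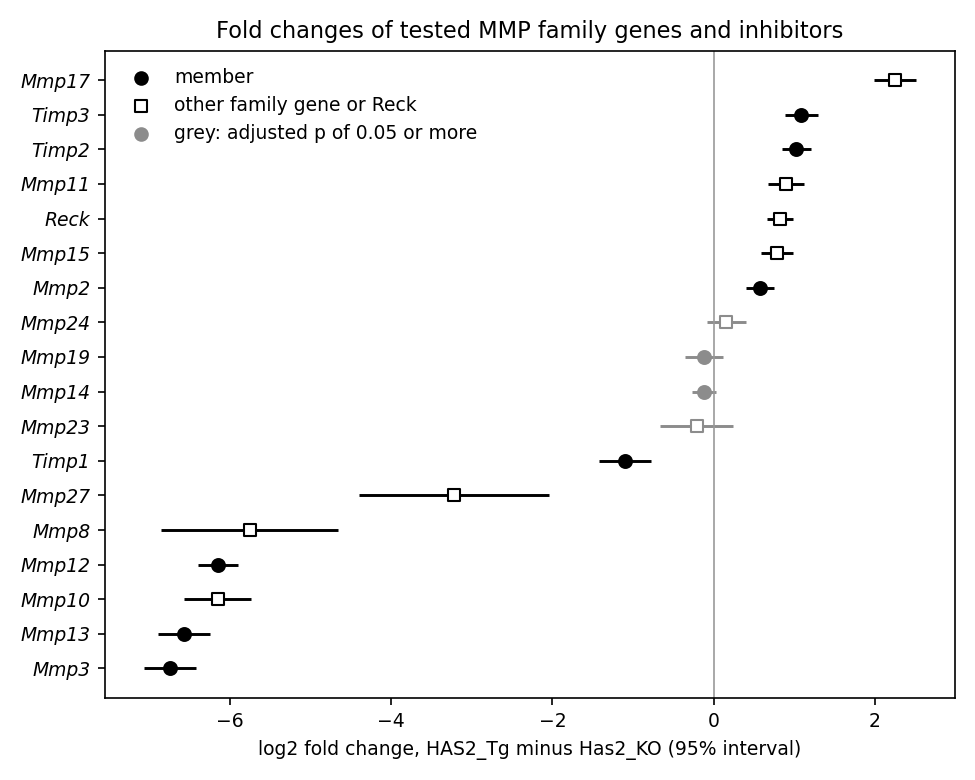
Log2 fold change (HAS2_Tg minus Has2_KO) with 95% intervals for the tested members (circles), other tested MMP genes and Reck (squares), with genes of adjusted p at or above 0.05 in grey. Mmp3, Mmp13, Mmp10 and Mmp12 form the low end, between -6.74 and -6.14, and Mmp17 is the highest at 2.25.

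Genes that activate, dock or clear MMPs were lower in 8 and higher in 3 of 20 tested (median -0.21), and in 13 and 3 with total counts. Plau, the urokinase that starts plasmin formation, was 20.8 ± 1.09 CPM in HAS2_Tg and 60.1 ± 1.83 CPM in Has2_KO (log2 fold change -1.53, SE 0.08). Cd44, which can hold Mmp9 at the cell surface, had -1.11 (SE 0.08). Lcn2, whose protein binds Mmp9, had 2 counts in HAS2_Tg and 1335 in Has2_KO, a scaled ratio of 576 (95% exact interval 159 to 4764). The integrin genes Itgb1 and Itgb3 were higher in HAS2_Tg by 0.87 (SE 0.08) and 0.56 (SE 0.07), and Bsg, known as an inducer of MMPs, by 0.45 (SE 0.09). Furin, the convertase that removes the propeptide of membrane-type MMPs, was not called (-0.06, SE 0.07), but was with total counts (-0.23, edgeR adjusted p = 0.0153).

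Matrix genes whose proteins MMPs cut were mostly higher in HAS2_Tg, 17 of 20 tested, with 2 lower (median 0.57). Lama2, a laminin chain, was higher by 1.89 (SE 0.12), Col1a2, of type I collagen, by 1.23 (SE 0.08) and Col4a2, of basement membrane collagen, by 1.26 (SE 0.09). Spp1, osteopontin, had a log2 fold change of -4.44 (SE 0.23) and the proteoglycan gene Vcan one of -1.37 (SE 0.19). With total counts 14 were higher and 2 lower.

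Cytokines and receptors known to induce MMPs were lower in 12 and higher in 3 of 20 tested (median -0.75), and in 14 and 3 with total counts. Il1a, an interleukin-1 ligand, had 3 counts in HAS2_Tg and 342 in Has2_KO, a scaled ratio of 98.4 (95% exact interval 33.4 to 480). Il1b had no count in any HAS2_Tg library and was at least 21.0-fold lower, as a scaled bound against 3 counts over the group. The interleukin-1 antagonist gene Il1rn had -5.37 (SE 0.26) and Osmr, the oncostatin M receptor, -1.48 (SE 0.10). Tgfb3 (2.86, SE 0.09), Tgfb2 (1.81, SE 0.07) and the shared cytokine receptor Il6st (0.67, SE 0.08) were higher. The receptor Il1r1 was present at 237 ± 11.6 CPM and 379.4 ± 8.32 CPM (-0.68, SE 0.07). Macrophage markers, as given above, were lower in the same libraries as Il1a and Il1b, and their part was not tested.

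Among transcription factors with known sites in MMP promoters, 13 of 21 tested were lower and 3 higher (median -0.71), or 14 and 2 with total counts. Runx2, an activator of Mmp13 in bone, was 4.55 ± 0.55 CPM in HAS2_Tg and 17.5 ± 1.69 CPM in Has2_KO (log2 fold change -1.94, SE 0.14). Nfkb2 and Junb each had -0.76 (SE 0.07). The AP-1 genes did not move as one. Fosl1 (-0.79) and Fosl2 (-0.73) were lower, Jund (0.48, SE 0.08) and Fosb (0.65, SE 0.15) were higher, and Fos was not called (0.35, SE 0.17). Jun was called higher (0.20, edgeR adjusted p = 0.0383), but not with total counts (0.03, edgeR adjusted p = 0.796). Trf, Furin, Il1b, Il1r1, Fosl1, Fosl2 and Fos were named after their values were seen.

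**Figure D5:**
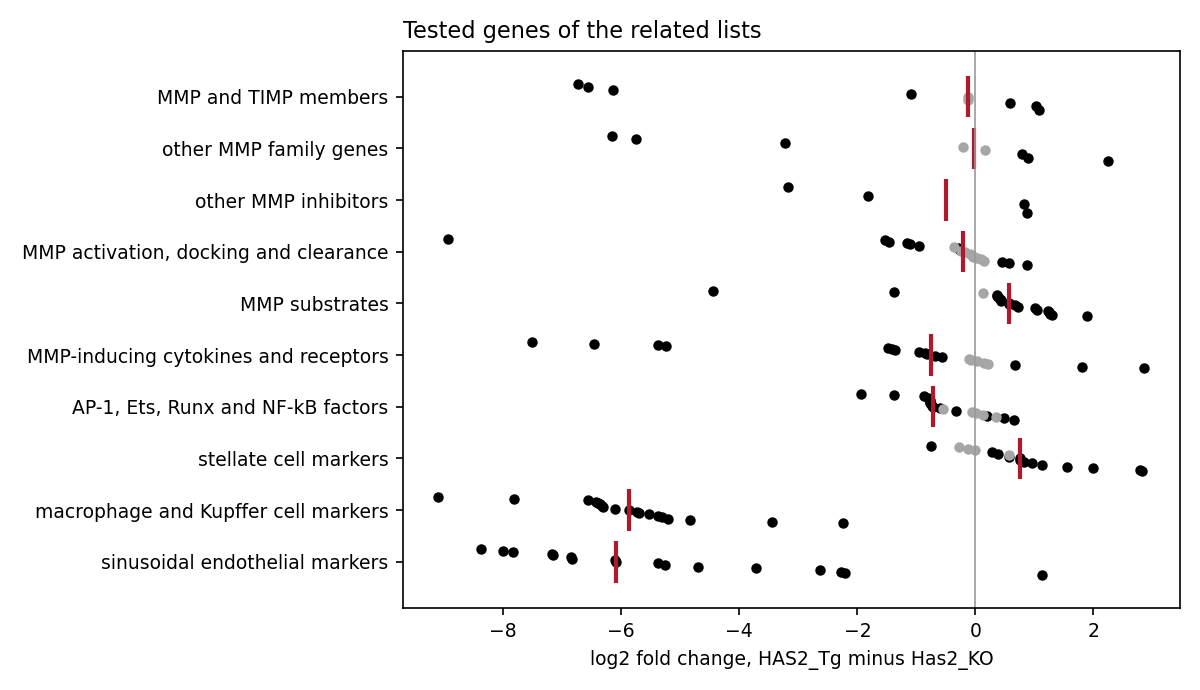
Log2 fold change (HAS2_Tg minus Has2_KO) of each tested gene in the related lists, black where called and grey where not, with list medians as red bars; fitted values of genes with no count in HAS2_Tg are no bounds. Among the lists plotted, medians run from -6.09 for endothelial markers to 0.75 for stellate cell markers, with matrix substrates at 0.57 and inducing cytokines and receptors at -0.75.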

How the data were processed

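Expected counts and FPKM were taken from 6 deposited files, 1 per library. Per the submitters' processing notes the authors used RSEM and the mm10 build. The RSEM version, the aligner and strand use are not given in the sources used here. The authors' deposited expected counts estimate how many reads belong to each gene and can carry decimals. FPKM was deposited beside them by the authors, to 2 decimals. Genes missing from a library were set to 0 (12658 cells), and 17857 of 17909 identifiers were named through RefSeq GRCm38.p6. Strands and the Mmp12 transcript start came from GENCODE M21 (GRCm38).

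Libraries were grouped by their titles. Depth was 11961726 to 12423220 counts, and the exact intervals of count ratios cover counting error only, while those of log2 fold changes include the spread between libraries. Within groups, chi-square per degree of freedom between libraries was 2.31 to 31.5 (genes of at least 20 counts), so each library was 1 replicate. Rounded counts passed filterByExpr and TMM and went into a two-sided robust quasi-likelihood fit in edgeR over all genes, adjusted by Benjamini-Hochberg and tested on simulated data. The SE was taken as the absolute log2 fold change divided by the root of F. CPM values use unrounded expected counts and TMM-adjusted totals. Ratios for groups of 1 to 3 counts use summed adjusted totals and a 95% exact interval.

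The members and lists were chosen with earlier results of these data known. Named genes are the members, up to 3 called genes per direction and list by adjusted p, family genes of at least 5 CPM, the 2 nearest profiles (on log2(CPM + 0.5)) of each tested member, and overlapping genes. Others were named for their position or after their values were seen. 1 of these genes is not reported here.

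Alternatives were DESeq2 size factors, total counts, no filter, a stricter filter (1 CPM in 3 libraries, mean of 5), a Wald test in DESeq2, limma with FPKM pseudocounts of 1 and 0.1, limma with no FPKM filter, TPM sums, and each library left out. The tools were DESeq2 1.42.0, edgeR 4.0.16 and limma 3.58.1 in R 4.3.3, and Python 3.11.15.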

Additional observations from a re-analysis of the deposited data

How the results depend on the processing

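Mmp2, Mmp3, Mmp12, Mmp13, Timp1, Timp2 and Timp3 kept their direction and stayed called in each of 14 alternatives. Their log2 fold changes ranged from 0.40 to 0.63 for Mmp2, from -6.92 to -5.69 for Mmp3, from -6.32 to -5.37 for Mmp12, from -6.74 to -4.57 for Mmp13, from -1.29 to -0.91 for Timp1, from 0.85 to 1.07 for Timp2 and from 0.90 to 1.18 for Timp3. Members called lower numbered 4 in the edgeR test, 6 with total counts and with unfiltered FPKM, and 5 with filtered FPKM and with no count filter. Mmp14 was called in the FPKM fits (-0.30, limma adjusted p from 0.00445 to 0.00638) as with total counts. Without the filter Mmp9 was called lower (-3.20, edgeR adjusted p = 0.0218). Over all genes, 2625 were higher and 2673 lower (49.5% higher); the counts were 1477 and 4827 with total counts (23.4% higher), 1399 and 4198 with limma on log2(FPKM + 1), 1376 and 4138 on log2(FPKM + 0.1), and 1366 and 4596 without the FPKM filter. Leaving out 1 library gave 2034 to 2727 higher and 2144 to 2897 lower, and members stayed at 3 higher and 4 lower. In TPM, MMP sums were 569.7 in HAS2_Tg and 1076 in Has2_KO and TIMP sums 2278 and 1286, with ratios of 4.00 and 1.19. With 1 library left out, the HAS2_Tg ratio was 3.83 to 4.17 and the Has2_KO ratio 1.17 to 1.20. No paired analysis was possible because the groups share no replicate numbers. Depth limits Mmp9, Mmp8 and the HAS2_Tg levels of Mmp3 and Mmp13, which rest on 20 counts or fewer per library.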
